A study of Homo sapiens with 6 samples.

Results

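The EGR, IER and NR4A genes are immediate early genes, the first genes transcribed when a growth factor, a cytokine or a stress reaches a cell. The 10 genes EGR1, EGR2, EGR3, EGR4, IER2, IER3, IER5, NR4A1, NR4A2 and NR4A3 were taken by symbol from the 54308 genes listed in the deposited signals, and all 10 were listed and could be tested. Bulk RNA-seq was performed on 143B, a human osteosarcoma (OS) cell line, with 3 vector control (VC) and 3 CNTNAP4 knockout (KO) libraries. Both groups were 143B cells transfected with a CRISPR/Cas9 plasmid, the VC cells with the control plasmid and the KO cells with one that targets CNTNAP4. The labels give 48 h of transfection, and the methods give a longer incubation, after which colonies were grown from sorted single cells. By the methods the RNA came from clonal cells, and the labels do not say which clone each KO library was made from. A difference between KO and VC can therefore not be told apart from a difference between clones, and p-values measure only the spread between these RNA samples. In a bulk sample, fewer cells that express a gene and less RNA per cell cannot be told apart either.

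The families share a way of being switched on and differ in what their proteins do. ERK, JNK and p38 MAP kinases, or kinases that they activate, phosphorylate factors that already sit at the promoters of these genes. Among these factors are the ternary complex factors bound beside serum response factor (SRF) and the CREB family. No new protein is therefore needed for transcription to start. EGR proteins are zinc finger transcription factors that bind GC-rich DNA and are held in check by the co-repressors NAB1 and NAB2. NR4A proteins are orphan nuclear receptors whose activity is set mainly by how much of them is made, and the IER genes encode small proteins with roles in survival, motility and the stress response. In bone, EGR1 and the NR4A receptors are known as early responders to parathyroid hormone and to growth factors.

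In KO, 4 of the 10 genes rose and 2 fell at an adjusted p under 0.05 (limma, adjusted over the 19306 genes tested). EGR1 rose 4.12-fold, IER3 1.98-fold, IER2 1.95-fold and EGR3 1.53-fold on the linear scale, while EGR4 and NR4A3 were 2.67-fold and 1.76-fold lower. EGR2, IER5, NR4A1 and NR4A2 did not pass the test. At an unadjusted p under 0.05, 4 were higher and 4 lower, against 3445 (17.8%) and 5796 of the 19306 genes tested. Each family had log2 fold changes of both signs, counting those that did not pass. Of all genes tested, 32.9% were called, 13.1% higher and 19.8% lower in KO. That split moved with scaling and with single libraries: 2526 higher and 3828 lower calls became 3005 and 3233 with each library centred on its median, 757 and 646 without VC replicate 1, and 654 and 569 without VC replicate 3.

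The genes lie on 9 chromosomes, with only EGR4 and NR4A2 on the same one. In GRCh38 with GENCODE 29 models, EGR1 (ENSG00000120738.7) spans bases 138465490 to 138469315 of chromosome 5 on the plus strand, IER2 (ENSG00000160888.6) spans 13150415 to 13154908 of chromosome 19 on the plus strand, and IER3 (ENSG00000137331.11) spans 30743199 to 30744554 of chromosome 6 on the minus strand. NR4A3 (ENSG00000119508.17) spans 99821855 to 99866891 of chromosome 9 on the plus strand, EGR4 (ENSG00000135625.7) spans 73290929 to 73293705 of chromosome 2 on the minus strand, and EGR3 (ENSG00000179388.8) lies on chromosome 8. The EGR and IER genes have few exons, though EGR2 spans 107905 bases in these models, the most of the 10 genes. Each EGR transcript has 2 exons, IER3 has 2, and IER2 and IER5 have 1. NR4A1 and NR4A2 have 8 exons and NR4A3 has 9. In all, 7 of the 10 had 4 or fewer exons, against 21.9% of the 14606 tested genes with a coding gene model.

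The pentamer ATTTA in the 3′ untranslated region is the core of AU-rich elements, which speed the decay of many early mRNAs. It occurred in 8 of the 10 genes and in 67.9% of the 14606 gene models. Its density was 8.14 per kb in IER3 and 0.81 per kb in EGR1, and IER2 and EGR4 had none, against a median of 1.67 per kb over the 13739 gene models with a 3′ untranslated region of at least 100 bases. Of the 4 genes that rose, EGR1, EGR3 (1.07 per kb) and IER2 stood under that median and IER3 above it. Of all 10 genes, 5 stood above it, namely IER3, IER5, NR4A1, NR4A2 and NR4A3, which fell.

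The sequence before the transcription start is shown for genes whose change could be set beside the elements that serum and cAMP act on. RefSeq windows (GRCh38.p14) were found for 7 of the 10 genes, with 3 starts for EGR2 and 2 for NR4A1. The windows hold the 250 bases before the start, 5′ to 3′ on the strand of the gene. EGR1 (chr5:138465229-138465478, plus strand) and IER2 (chr19:13150161-13150410, plus strand) rose in KO, NR4A3 (chr9:99821635-99821854, plus strand) fell, and EGR2 (chr10:62816367-62816616, minus strand, the start farthest downstream) is shown as the other gene whose searched windows held a CArG box. For NR4A3 the last 30 bases of the window, which lie in an NR4A3 exon of GENCODE, were left out. Capitals mark every match to the CArG box (the SRF site), to the cAMP response element (CRE) core TGACG and to the ETS core CCGGAA, on either strand.
EGR1: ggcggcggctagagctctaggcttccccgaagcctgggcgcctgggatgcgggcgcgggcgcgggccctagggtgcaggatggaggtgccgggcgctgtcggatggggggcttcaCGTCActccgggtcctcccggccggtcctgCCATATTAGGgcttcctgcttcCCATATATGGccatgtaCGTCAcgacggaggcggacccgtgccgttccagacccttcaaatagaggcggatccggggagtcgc
EGR2: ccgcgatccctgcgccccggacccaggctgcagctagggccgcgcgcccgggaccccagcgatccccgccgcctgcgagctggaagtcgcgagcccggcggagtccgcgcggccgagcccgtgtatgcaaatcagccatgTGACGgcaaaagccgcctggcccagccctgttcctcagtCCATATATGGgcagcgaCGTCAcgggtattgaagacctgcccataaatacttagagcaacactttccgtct
IER2: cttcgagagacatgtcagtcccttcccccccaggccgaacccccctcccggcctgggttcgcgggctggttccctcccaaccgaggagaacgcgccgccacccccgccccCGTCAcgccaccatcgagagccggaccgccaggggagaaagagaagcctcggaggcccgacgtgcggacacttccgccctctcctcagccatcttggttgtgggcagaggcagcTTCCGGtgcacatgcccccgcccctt
NR4A3: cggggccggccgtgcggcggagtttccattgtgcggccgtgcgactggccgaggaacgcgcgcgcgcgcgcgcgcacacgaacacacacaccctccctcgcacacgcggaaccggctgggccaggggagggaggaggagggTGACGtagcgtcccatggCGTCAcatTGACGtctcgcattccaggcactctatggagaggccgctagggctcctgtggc
EGR1 had 2 CArG boxes, CCATATTAGG from 105 to 96 and CCATATATGG from 83 to 74 bases before its start, with a CRE core farther out and another between them and the start. EGR2 had 1 CArG box, of the same letters as the nearer one of EGR1, 71 to 62 bases before its start. It also had CRE cores 110 to 106 and 54 to 50 bases before that start. A CArG box was present in 1.16% of all 35116 windows of this length. NR4A3 had 4 CRE cores and no CArG box, the one nearest the start in the bases left out. IER2 had 1 CRE core and 1 ETS core, which occurred in 21.2% and 14.5% of all windows. Of the 7 genes with windows, 5 had a CRE core and 3 had an ETS core, IER5 and NR4A1 among the latter. The full CRE TGACGTCA, the EGR sites GCGGGGGCG and GCGTGGGCG and the NR4A site AAAGGTCA were found in none of the windows of these genes and in 1.65%, 5.37% and 1.05% of all windows. A CRE core was counted also within a full CRE. EGR4, which fell, had CRE cores 177 to 173 and 109 to 105 bases before its RefSeq start. In its window 157 of the 250 bases lie in EGR4 exons of GENCODE, so less sequence before those exons was searched. Within the windows of the 7 genes, a CArG box was thus found for EGR1, which rose, and for EGR2, which did not pass the test.

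Signals are deposited as log2 values that were quantile-normalized between libraries, lying between -10.87 and 12.04 over the 6 libraries. The median was 0.62 in VC replicate 1. Between 20333 and 21041 genes had a value in a library, and an empty cell marks a gene without one. The number of reads behind a value is unknown, so no counting error could be given. CNTNAP4 had a value in 1 of the 6 libraries, a log2 signal of -7.18 in VC replicate 3, so the signals do not check the deletion. Of the osteosarcoma and mesenchymal markers, VIM, SPARC, COL1A1 and RUNX2 had values above the median of the libraries in all 6, while ALPL, COL1A2 and SP7, a defining osteoblast factor, were under it wherever they had a value. Of the epithelial markers, KRT8, KRT18 and EPCAM were above the median and CDH1 had a value in 1 library, and their summed linear signal was 576 to 640 in VC and 553 to 608 in KO. The leukocyte markers PTPRC, CD3E and CD14 and the 3 endothelial markers were under the median wherever they had a value. The summed linear signal of the 4 leukocyte markers was 21.7 to 23.0 in VC and 52.3 to 88.1 in KO, almost all of it CD68, a lysosomal protein that many cell types make. The part of other cells in the results was not tested.

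**Figure D1:**
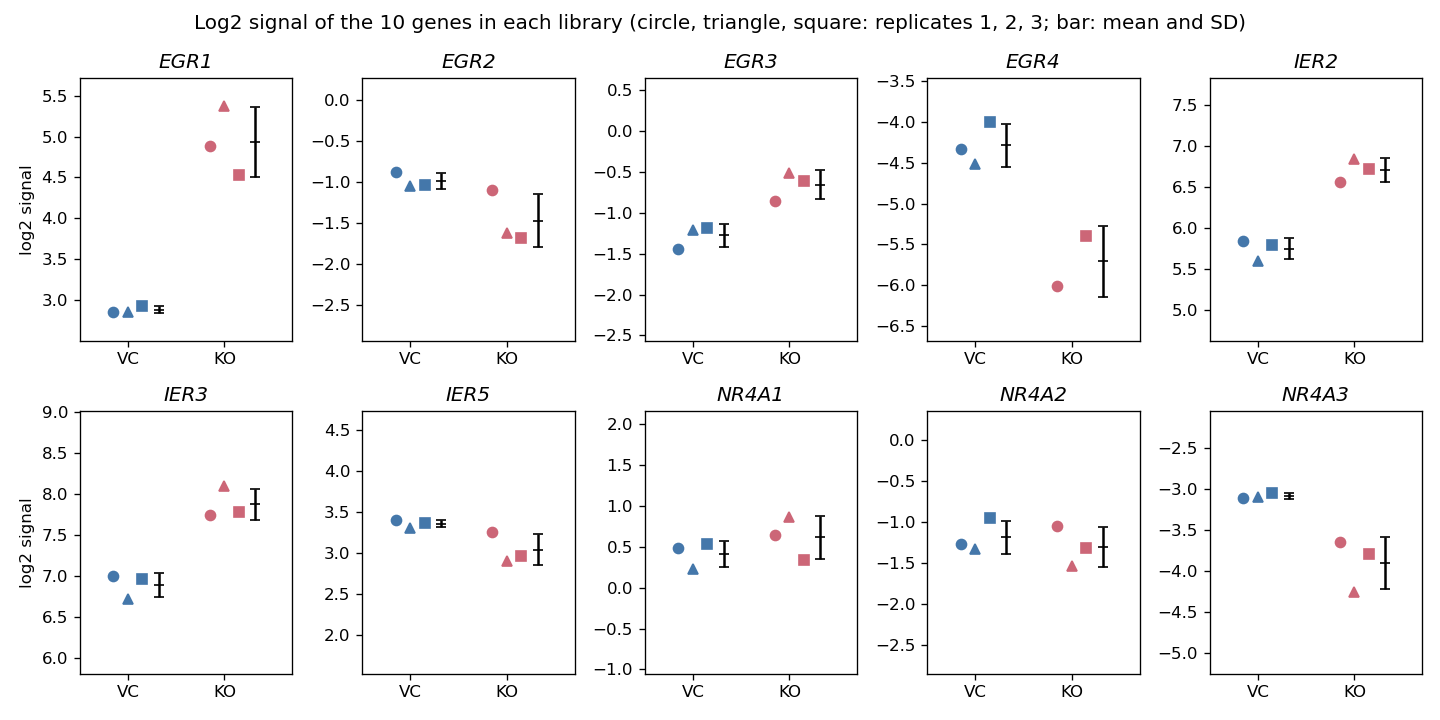
Each panel shows 1 gene, with the log2 signal on the vertical axis over a span of the same width, VC libraries in blue and KO libraries in red. Symbols are replicates 1 (circle), 2 (triangle) and 3 (square), and the black bar is the mean with its SD. The KO points of EGR1, EGR3, IER2 and IER3 lie above all VC points, and EGR4 has no value in KO replicate 2.

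In what follows, values by library are in the order of replicates 1, 2 and 3. EGR1, the best known member of its family, had the largest change of the 10 genes. Its log2 signals were 2.86, 2.86 and 2.93 in the VC libraries, against 4.88, 5.38 and 4.53 in the KO libraries. The VC values lay within 0.1 of each other, the KO values were spread over almost 1 unit with replicate 2 highest, and the lowest KO library was well above the highest VC library. VC averaged 2.88 ± 0.042 (SD, n = 3) and KO averaged 4.93 ± 0.43 (SD, n = 3). EGR1 thus had a log2 fold change of 2.04 (standard error 0.22, 95% interval 1.49 to 2.60, limma adjusted p = 0.00874). EGR1 passed the test with any single library left out, with an adjusted p of at most 0.0415. Of the 19306 genes tested, 193 had a log2 fold change at least as high.

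EGR3, a close relative of EGR1, moved the same way by less. The VC libraries had log2 signals of -1.44, -1.21 and -1.18, and the KO libraries had -0.86, -0.51 and -0.62. All KO values lay above all VC values, with a gap smaller than that of EGR1. EGR3 rose by 0.62 log2 units (standard error 0.13, 95% interval 0.30 to 0.94, limma adjusted p = 0.0232). The adjusted p was 0.0604 to 0.0731 without any 1 of the VC replicates and 0.0728 without KO replicate 3. A pseudocount of 1 on the linear scale brought the log2 fold change to 0.21.

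EGR2, known for its part in myelination and in the response of T cells, was lower on average in KO without passing the test. Its log2 signals were -0.88, -1.05 and -1.04 in the VC libraries, against -1.11, -1.63 and -1.69 in the KO libraries. KO replicate 1 lay just under the VC libraries and the other KO libraries clearly under them, so the groups did not overlap. The log2 fold change was -0.49 (standard error 0.18, 95% interval -0.93 to -0.041, limma adjusted p = 0.0851). Without KO replicate 1 the log2 fold change was -0.67 and the adjusted p was 0.00804.

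EGR4, the member with the lowest signals of the 10, fell. The VC libraries had log2 signals of -4.34, -4.52 and -4.01, KO replicates 1 and 3 had -6.01 and -5.40, and KO replicate 2 had no value and was left out of the fit for this gene. Both KO values lay under the VC values by more than the range within VC. EGR4 had a log2 fold change of -1.42 (standard error 0.26, 95% interval -2.12 to -0.72, limma adjusted p = 0.0246). These signals were between the 10.3 and the 22.0 percentile of the genes with a value. A pseudocount of 1 on the linear scale brought it to -0.045 (adjusted p = 0.203), and the adjusted p was 0.0568 to 0.0754 without any 1 of the VC replicates.

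EGR1 and EGR2 can be set against each other within a library, where normalization acts on both. EGR1 exceeded EGR2 by 3.87 ± 0.12 log2 units (SD, n = 3) in VC and by 6.40 ± 0.53 (SD, n = 3) for KO libraries. Every KO gap was wider than every VC gap, by 2.53 on average (two-sided exact permutation p = 0.1, as low as 3 against 3 can go). This pair and the pairs of IER and NR4A genes given further on were chosen after their values were seen. Every KO library was above VC for EGR1 and under VC for EGR2. The separation of the gaps and its p therefore followed from those values and add no support to them.

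IER2 and IER3 rose by nearly the same amount. IER2 is a nuclear protein induced by growth factors and linked to cell motility, and its log2 signals were 5.84, 5.60 and 5.79 in the VC libraries, against 6.56, 6.84 and 6.71 in the KO libraries. Every KO library was above every VC library, and the spread was similar in both groups. The log2 fold change of IER2 was 0.96 (standard error 0.11, 95% interval 0.68 to 1.25, limma adjusted p = 0.00962), and 6.08% of the genes tested had one at least as high.

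IER3, also known as IEX-1, is an ERK substrate and NF-kB target that modulates apoptosis. Its log2 signals were 6.99, 6.72 and 6.96 in the VC libraries, against 7.75, 8.10 and 7.78 in the KO libraries. As with EGR1, KO replicate 2 had the highest value, and no KO library reached down to the VC range. The log2 fold change was 0.98 (standard error 0.13, 95% interval 0.64 to 1.32, limma adjusted p = 0.0112). IER2 and IER3 passed the test with any single library left out, with adjusted p of at most 0.044 and 0.0459.

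An antisense gene, IER3-AS1, overlaps IER3 in RefSeq. The labels name a stranded kit, and whether the counting used strand is not given in the sources used here. IER3-AS1 had overlapping groups and a log2 fold change of -0.13 (standard error 0.43, limma adjusted p = 0.833).

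IER5, a stress-induced protein that activates the heat shock factor HSF1, had lower values in KO that did not pass the test. The log2 signals were 3.40, 3.31 and 3.36 in the VC libraries, against 3.25, 2.90 and 2.96 in the KO libraries. The groups did not overlap, KO replicate 1 standing closest to VC. For IER5 the log2 fold change was -0.32 (standard error 0.11, 95% interval -0.60 to -0.033, limma adjusted p = 0.0809). The adjusted p was 0.0113 without KO replicate 1, 0.0363 with a trend and robust estimation and 0.0284 when only the 50% of genes with higher mean signals were tested. IER3 exceeded IER5 by 3.54 ± 0.10 log2 units (SD, n = 3) across VC and 4.84 ± 0.35 (SD, n = 3) across KO, wider by 1.30 (two-sided exact permutation p = 0.1, as low as this design allows). As for EGR1 and EGR2, that p was fixed once both genes had separate groups in opposite directions.

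Of the NR4A receptors, NR4A3 (NOR-1) fell. Its log2 signals were -3.11, -3.10 and -3.05 in the VC libraries, against -3.65, -4.26 and -3.79 in the KO libraries. The VC values were almost the same, and each KO value lay under them, that of replicate 2 farthest. NR4A3 had a log2 fold change of -0.81 (standard error 0.17, 95% interval -1.24 to -0.38, limma adjusted p = 0.0241). The adjusted p was 0.0679 to 0.0782 without any 1 of the VC replicates, 0.0618 without KO replicate 3, 0.0603 with a trend and robust estimation and 0.0504 without moderation. NR4A3 was between the 20.5 and the 27.5 percentile, and a pseudocount of 1 on the linear scale brought it to -0.066 (adjusted p = 0.0489).

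NR4A1 (Nur77), a receptor linked to apoptosis and inflammation, had log2 signals of 0.48, 0.23 and 0.53 in the VC libraries, against 0.64, 0.86 and 0.34 in the KO libraries. KO replicate 3 lay inside the VC range. The log2 fold change was 0.20 (95% interval -0.22 to 0.61, limma adjusted p = 0.38). NR4A2 (Nurr1), known for its part in dopamine neurons, had log2 signals of -1.28, -1.33 and -0.96 in the VC libraries, against -1.06, -1.55 and -1.32 in the KO libraries. These groups overlapped as well, and the log2 fold change was -0.12 (95% interval -0.54 to 0.31, limma adjusted p = 0.615). The intervals of NR4A1 and NR4A2 leave room for changes of up to about 0.61 upward and 0.54 downward. NR4A1 exceeded NR4A3 by 3.50 ± 0.15 log2 units (SD, n = 3) across VC and 4.51 ± 0.53 (SD, n = 3) across KO, wider by 1.01 (two-sided exact permutation p = 0.1, as low as this design allows).

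**Figure D2:**
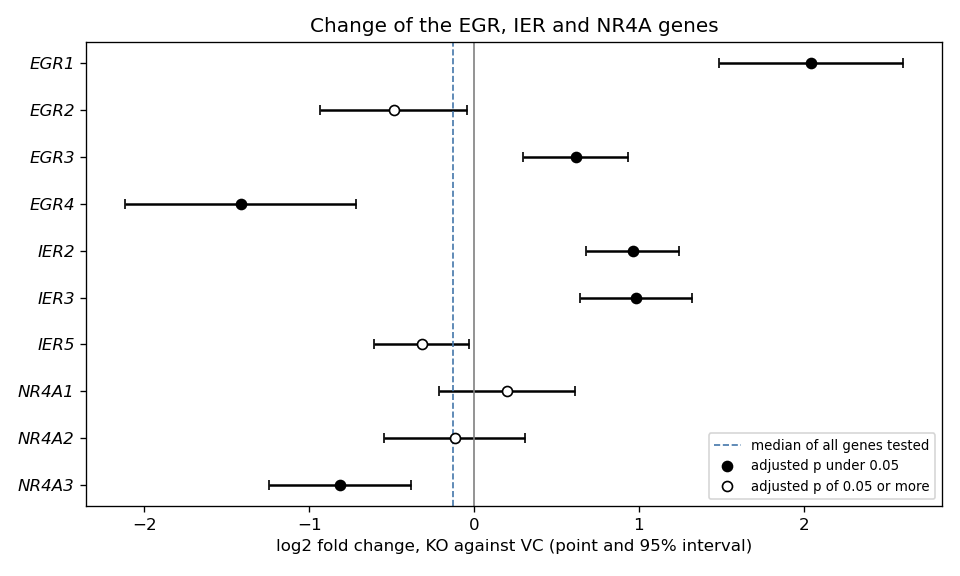
Points are log2 fold changes of KO against VC with 95% intervals, filled where the adjusted p was under 0.05. The dashed line is the median of all genes tested, -0.13. EGR1, IER2, IER3 and EGR3 stand to the right of 0 and EGR4 and NR4A3 to the left, while the intervals of NR4A1 and NR4A2 include 0.

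The median log2 fold change was 0.041 over the 10 genes and -0.13 over all genes tested. Centring each library on its median moved the latter to -0.042 and adding 1 to the linear signal moved it to -0.023, and neither changed the sign of any of the 10. Relative to the median of all genes, the log2 fold change was 2.17 for EGR1, 1.11 for IER3, 1.09 for IER2 and 0.74 for EGR3, and -1.29 for EGR4 and -0.69 for NR4A3. Among the 9 genes with 6 values, all KO values lay above all VC values in 4 and under them in 3, against 22.6% and 36.7% (59.3% together) of all genes with 6 values.

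**Figure D3:**
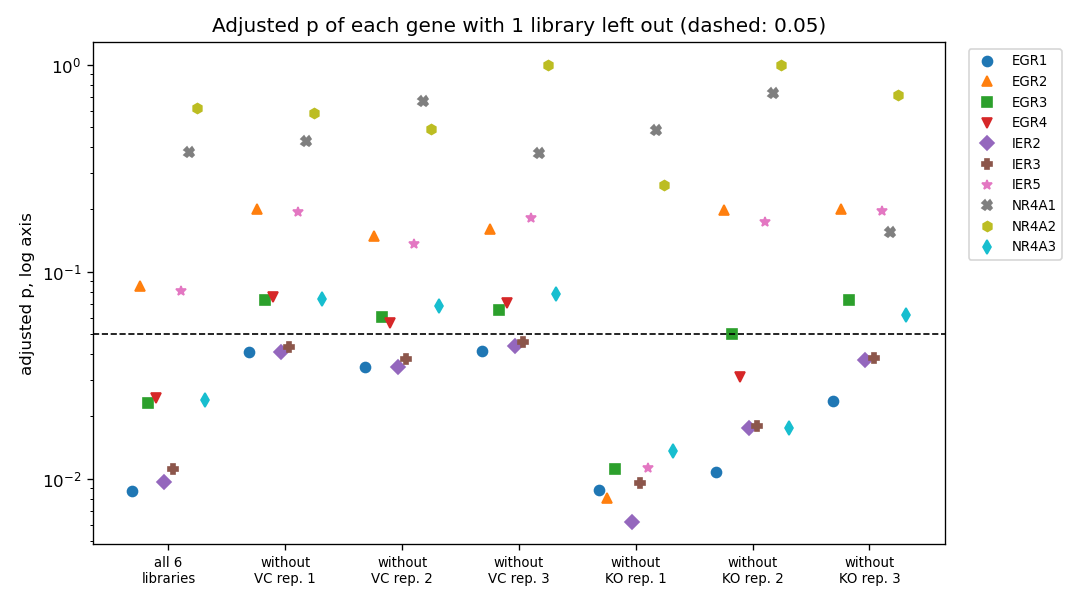
Adjusted p (log axis) of each gene with all 6 libraries and with 1 library left out, with a dashed line at 0.05. EGR1, IER2 and IER3 stay under the line in every fit, with a highest value of 0.0459. EGR2 and IER5 are under it without KO replicate 1 alone, and EGR4 could not be fitted without KO replicate 1 or 3.

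Among 15 regulators that act upstream of these genes, 1 rose and 2 fell, and the median log2 fold change was -0.069, against 13.1% higher and 19.8% lower calls among all genes tested. Without VC replicate 1 or 3 no regulator was called in either direction (limma, 2 higher and 2 to 3 lower at an unadjusted p under 0.05 in the alternatives without a call), and without KO replicate 3 none was called lower. SRF, which binds the CArG box, averaged 4.64 ± 0.11 (SD, n = 3) on the log2 scale for VC against 4.57 ± 0.028 (SD, n = 3) for KO, and the 95% interval of its log2 fold change ran from -0.28 to 0.13 (limma adjusted p = 0.52). ELK3, a ternary complex factor, rose by 0.56 (limma adjusted p = 0.0129). MRTFB, an SRF coactivator released by actin polymerization, had a log2 fold change of -0.70 (limma adjusted p = 0.0158) and ATF1, of the CREB family, had -0.39 (limma adjusted p = 0.0425).

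Among 8 proteins that bind members of the families, 2 rose and 1 fell, shares to be read against the same 13.1% and 19.8%. No partner was called higher by limma without any 1 of the VC replicates or without KO replicate 2 or 3, and none lower without VC replicate 1 or 3 or KO replicate 3. In the alternatives without a call, 2 to 3 were higher and 1 to 4 lower at an unadjusted p under 0.05. NAB1 rose by 0.26 (limma adjusted p = 0.0458). For NAB2, which is both a partner and a target of EGR1, the log2 fold change was 0.34 (95% interval 0.081 to 0.59, limma adjusted p = 0.0544), with every KO library above every VC library. RXRB, a retinoid X receptor of the family that pairs with NR4A1 and NR4A2, rose by 0.25 (limma adjusted p = 0.0415). PPP2R5C, a regulatory subunit of protein phosphatase 2A, fell by 0.41 (limma adjusted p = 0.014).

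Of 23 immediate early genes other than the 10, 13 rose and 2 fell, with a median log2 fold change of 0.31, against 13.1% higher and 19.8% lower among all genes tested. The 13 higher calls became 3 without any 1 of the VC replicates, and the list was chosen with earlier results of these data known. The 23 include IER5L, a paralog of IER5 named here after its values were seen, with a log2 fold change of -0.64 (limma adjusted p = 0.0939). KLF2, a zinc finger factor, averaged 1.99 ± 0.28 (SD, n = 3) on the log2 scale for VC against 3.96 ± 0.42 (SD, n = 3) for KO, a difference of 1.97 (limma adjusted p = 0.0104). MAFF, a small MAF factor, rose by 1.61 (limma adjusted p = 0.00815). PLK2, a polo-like kinase, and BTG2, an antiproliferative protein, fell by 0.96 and 0.81 (limma adjusted p = 0.0259 and 0.0095). Of 8 AP-1 genes, 4 rose and 1 fell, with log2 fold changes of 2.16 for ATF3 (limma adjusted p = 0.0107), 1.40 for JUNB (limma adjusted p = 0.00891) and -0.27 for FOSL2 (limma adjusted p = 0.0402). FOSL2 was the lower call, and no AP-1 gene was called lower by limma with centring, without any 1 of the VC replicates or without KO replicate 2 or 3 (0 to 1 at an unadjusted p under 0.05).

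Of 6 factors that act on AU-rich mRNAs, 1 rose and 3 fell. These calls depended on which libraries were kept. Without any 1 of the VC replicates or without KO replicate 3, limma called none in either direction. In those fits 1 was higher and 3 to 4 lower at an unadjusted p under 0.05. Limma called 1 higher and 4 lower without KO replicate 1, and 1 higher and 1 lower without KO replicate 2. Without moderation none was called lower. ZFP36L1, which destabilizes such mRNAs, rose by 0.76 (limma adjusted p = 0.0196), and its paralog ZFP36L2 fell by 0.68 (limma adjusted p = 0.0276). HNRNPD, known as AUF1, fell by 0.59 (limma adjusted p = 0.0366). Among 10 genes described as EGR1 targets, 4 rose and 0 fell with limma, and 5 were higher and 2 lower at an unadjusted p under 0.05. Among all genes tested 13.1% and 19.8% were called, and 3445 (17.8%) were higher and 5796 lower at an unadjusted p under 0.05. The 4 higher calls became 1 without VC replicate 3 and 2 without VC replicate 1 or KO replicate 3. ICAM1, an adhesion molecule that NF-kB also induces, averaged 1.94 ± 0.075 (SD, n = 3) on the log2 scale for VC against 4.78 ± 0.41 (SD, n = 3) for KO, a difference of 2.84 (limma adjusted p = 0.00597). FN1, encoding fibronectin, rose by 0.57 (limma adjusted p = 0.0105).

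**Figure D4:**
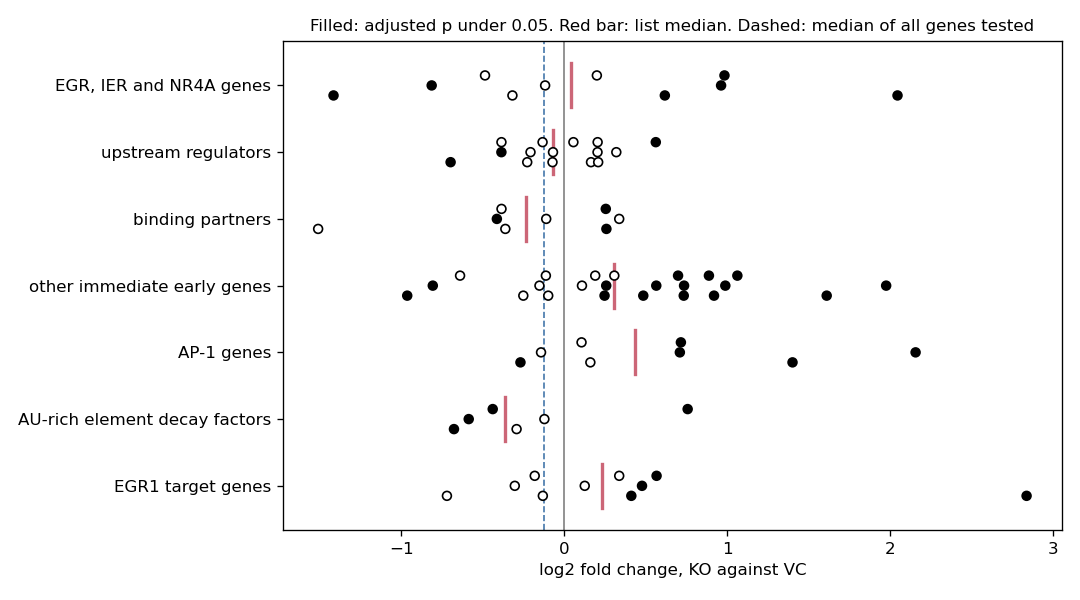
Each point is 1 gene at its log2 fold change of KO against VC, filled where the adjusted p was under 0.05. Red bars are list medians and the dashed line is the median of all genes tested, -0.13. Filled points to the right prevail among the other immediate early genes (13 of 23) and the AP-1 genes (4 of 8). The 13 became 3 without any 1 of the VC replicates, and the lists were chosen with earlier results of these data known.

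The genes whose centred log2 signals lay nearest to a member over the 6 libraries were searched among 9653 genes with 6 values and higher mean signals. For EGR1 these were MXD1, GPCPD1 and NFKB2, at a root mean squared difference of 0.12, 0.12 and 0.13 log2 units. For IER3 they were HCFC1R1, PIK3CD and MBD6 (0.044, 0.044 and 0.047), and for NR4A3 they were DIS3L, DYNLL1 and FRMD4B (0.020, 0.036 and 0.043). All of these values come from the same 6 libraries, and a gene with a similar difference between KO and VC lies near by construction.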

How the data were processed

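Gene expression was measured by bulk RNA-seq in 3 VC and 3 KO libraries, grouped by their titles. The submitters' processing notes name CASAVA, STAR, Partek and the build GRCh38.p13, while the methods name CLC Genomics and Partek. The authors deposited 1 table of log2 signals per gene and library, quantile-normalized between libraries. The linear unit, annotation, tool versions and depth are not given in the sources used here. Quantile normalization brings libraries toward a common distribution, so a change shared by most genes can be reduced or hidden. Some imbalance remained in the deposited signals. Of the genes tested, 7766 had a higher and 11540 a lower mean in KO, with a median log2 fold change of -0.13.

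Signals were used as deposited. KO was compared with VC for every gene that had 2 or more values per group, by a two-sided moderated test (limma 3.58.1 in R 4.3.3, empirical Bayes without trend). The Benjamini-Hochberg adjustment covered 19306 genes, and an adjusted p under 0.05 is a call. The fit was tested on simulated data.

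The members and gene lists were chosen with earlier results of these data known. Besides the 10 members, the genes named are CNTNAP4, SRF, NAB1 and NAB2, the markers, the overlapping IER3-AS1, per list up to 2 called genes that rose most and 2 that fell most, and the 3 genes nearest to 1 member of each family (EGR, IER and NR4A). IER5L was named outside these rules, after its values were seen. Gene models came from GENCODE 29 and upstream sequence from RefSeq. Alternatives were the genes tested, median centring, a pseudocount of 1, trend with robust estimation, no moderation, a replicate block and each library left out.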

Additional observations from a re-analysis of the deposited data

How the results depend on the processing

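The number of called genes, 6354, was 1533 with a replicate block and 1223 to 8669 with 1 library left out, that is 1223 without VC replicate 3, 1403 without VC replicate 1, 2018 without KO replicate 3, 2450 without VC replicate 2 and 8669 without KO replicate 1. Same-numbered libraries did not deviate together (correlations of 0.023, 0.0051 and -0.0074 across genes). These values gave no sign of pairing by number. They cannot exclude it, since differently numbered libraries were not compared.

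With the replicate block 2 of the 4 higher members were called (EGR1 and EGR3, with an adjusted p of 0.0502 for IER2 and 0.0541 for IER3). With 1 library left out 3 to 4 were called, EGR3 being the one lost without VC replicate 1, 2 or 3 or KO replicate 3. All 4 were called under centring, the pseudocount, trend with robust estimation and no moderation.

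The 2 lower members became 1 with the upper 50% of genes by mean signal (IER5, where EGR4 and NR4A3 were not tested), 1 with genes of 6 values only (EGR4 was not tested), 1 with the pseudocount, and 0 without moderation and with the block (3 and 4 at an unadjusted p under 0.05). With 1 library left out they were 0 to 3, and 0 without VC replicate 1, 2 or 3 or KO replicate 3, where 1 or 2 had an unadjusted p under 0.05. The log2 fold change of NR4A2 reversed to 0.0023 without KO replicate 2 and was as low as -0.24 without KO replicate 1.

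The median of the upstream regulators was 0.056 with the upper 50% of genes, 0.014 with centring and -0.088 to -0.032 with 1 library left out (without KO replicate 1 and VC replicate 1). That of the binding partners was -0.077 with the pseudocount. That of the other immediate early genes was 0.25 to 0.46 with 1 library left out, and 2 to 14 of them were called higher over all alternatives, 2 with the block and 3 without any 1 of the VC replicates. AP-1 genes called higher were 2 to 4, with 2 under the block. EGR1 targets called higher were 1 to 5, with 1 under the block and without VC replicate 3. Upstream regulators called were 0 to 4 in each direction, with 4 higher in the upper 50% of genes and 4 lower with the pseudocount among others. Binding partners called were 0 to 3 in each direction. Factors acting on AU-rich mRNAs that were called were 0 to 1 higher and 0 to 4 lower. With the block none of these 3 lists had a call by limma, with 1 to 2 higher and 3 to 4 lower in each at an unadjusted p under 0.05. The median of the EGR1 targets was 0.34 with the upper 50% of genes, 0.31 with centring and 0.16 to 0.29 with 1 library left out (without KO replicates 2 and 1). Other than by the number of genes or libraries tested, the cause was not tested. Depth is unknown, and EGR4 and NR4A3 rest on low signals.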
